A study of Homo sapiens with 8 samples.

Results

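The 7SL and 7SK RNA genes described here are 8 listed genes and pseudogenes, taken from a count table of 63568 genes: the 7SL copies RN7SL1, RN7SL2, RN7SL3, RN7SL4P, RN7SL5P and RN7SL674P, and the 7SK copies RN7SK and RN7SKP36. They were chosen by their high read counts and peak pileups in these libraries, so their counts, pileups, widths and peak sharing are given as descriptions, without a test. Of the 8 genes, 7 were paired with an identifier of the count table. RN7SL1 was paired with none, and it is described by its peaks alone.

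The cells were MIAPaCa-2, an established human pancreatic carcinoma line, labelled as epithelial cells of the pancreas. They expressed a short hairpin RNA, which was a control sequence (shRNA-Control, named control here) or was directed at METTL3 (shRNA-METTL3, named METTL3-KD). METTL3 is the enzyme that writes most m6A on messenger RNA. For MeRIP-seq, fragmented total RNA was split into an input and a part that was pulled down with an antibody to N6-methyladenosine (m6A). The 8 samples form 4 groups of 2 sequencer lanes each (control m6A, control input, METTL3-KD m6A, METTL3-KD input), and the lanes of a group were summed to 1 library. Each condition is therefore 1 library without a replicate, no test between conditions was possible, and all intervals cover counting error only. The knockdown line came to the laboratory as a gift, and no other METTL3-KD line was part of these data.

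7SL RNA is the RNA scaffold of the signal recognition particle, which binds signal peptides on ribosomes and brings them to the endoplasmic reticulum. 7SK RNA is a nuclear RNA that holds the elongation kinase P-TEFb (CDK9 with a cyclin T) in an inactive complex with HEXIM proteins. Both RNAs are transcribed by RNA polymerase III, and both have left many pseudogene copies across primate genomes. Alu elements also derive from 7SL RNA. A P in the gene name marks a pseudogene.

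The copies are placed on GRCh37 (hg19), the build of the peak lists. RN7SL1 (chr14:50053298-50053594, plus strand) was located by matching the RN7SL2 sequence inside RPS29, where it lies in an intron on the opposite strand. RN7SL2 (chr14:50329271-50329567, minus strand) overlaps an exon of a long noncoding RNA gene on the same strand, and RN7SL3 (chr14:50320336-50320632, minus strand) overlaps no other annotated gene. RN7SL4P (chr3:15780022-15780315, plus strand) lies in an intron of ANKRD28 on the opposite strand. RN7SL5P (chr9:9442060-9442347, plus strand) lies in an intron of PTPRD, also on the opposite strand. RN7SL674P (chr2:11724899-11725176, plus strand) lies in an intron of GREB1 on the same strand. RN7SK (chr6:52860418-52860748, plus strand) and RN7SKP36 (chr4:7113815-7114126, minus strand) overlap no other annotated gene.

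The 7SL copies were close to identical where their peaks had their centres. The stretch from position 135 to 164 of the RNA, numbered as in RN7SL2, is shown because most 7SL summits lay in or near it, with 2 matches to the m6A consensus DRACH in capitals. DRACH stands for A, G or T, then A or G, then A, C, and A, C or T. The stretches are printed in the direction of transcription, from the GRCh37 reference at chr14:50329404-50329433 (RN7SL2), chr14:50053432-50053461 (RN7SL1), chr14:50320469-50320498 (RN7SL3), chr3:15780156-15780185 (RN7SL4P), chr9:9442194-9442223 (RN7SL5P) and chr2:11725033-11725062 (RN7SL674P).
RN7SL2: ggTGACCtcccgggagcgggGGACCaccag
RN7SL1: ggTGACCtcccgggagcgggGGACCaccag
RN7SL3: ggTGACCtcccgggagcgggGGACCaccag
RN7SL4P: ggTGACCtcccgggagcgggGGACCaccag
RN7SL5P: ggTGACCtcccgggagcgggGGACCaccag
RN7SL674P: ggTGACCtcccgggagtggaGGACCaccag
The first 5 sequences were the same, and RN7SL674P differed from RN7SL2 at 2 bases, both outside the capitals.

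Over their aligned bases, identity to RN7SL2 was 98.7% for RN7SL1, 96.3% for RN7SL3, 92.0% for RN7SL4P, 92.0% for RN7SL5P and 87.0% for RN7SL674P.

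RN7SK and its listed pseudogene are shown where the RN7SKP36 peak had its summit, from position 165 of RN7SK, at chr6:52860582-52860611 and chr4:7113942-7113971, with the DRACH match in capitals.
RN7SK: gaggaGGACCggtcttcggtcaagggtata
RN7SKP36: gaggaGGACCggtcttcggtcaagggtata
The sequences were the same here, and over the whole RNA the identity of the pair was 86.5%.

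How far reads can be assigned to a copy follows from these sequences. The peak caller recorded reads of 75 nt, so each 75-nt stretch of a copy was looked up in the whole genome on both strands. Of the 223 stretches of RN7SL2, 14.8% occurred nowhere else, against 22.0% for RN7SL1 and 78.0% for RN7SL3. The share was 46.4% for RN7SL4P, 36.9% for RN7SL5P and 95.6% for RN7SL674P. RN7SL2 shared 58.7% of its stretches with RN7SL1, 52.9% with RN7SL4P and 41.3% with RN7SL5P. From position 119 to 202, 84 nt in a row were identical in RN7SL1, RN7SL2, RN7SL3, RN7SL4P and RN7SL5P. Every stretch over the summits of RN7SL1, RN7SL2, RN7SL4P and RN7SL5P occurred in more than 1 place, in both peak lists. For RN7SL3, 68.0% of the stretches over the control summit and 65.3% of those over the METTL3-KD summit were unique. For RN7SK 36.6% of the stretches were unique, and for RN7SKP36 100% were. How the aligner and the counter placed reads with several equal matches is not stated, so a value for a single copy may hold reads of its neighbours in sequence, for RN7SL3 and RN7SL674P over a smaller part of the RNA. RN7SKP36 was the listed copy with no shared stretch.

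**Figure D1:**
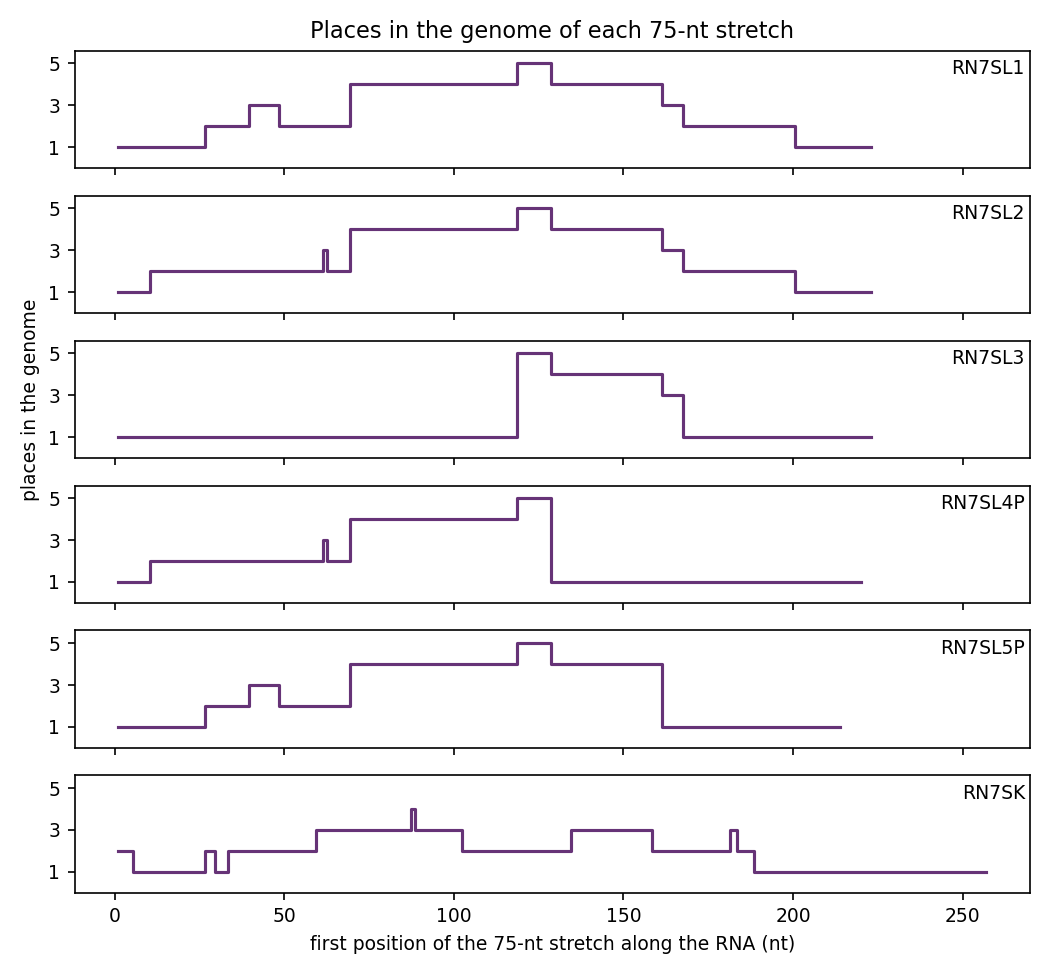
For each gene, the y axis gives the number of places in the genome that hold the 75-nt stretch starting at the position on the x axis (nt along the RNA). In RN7SL1, RN7SL2, RN7SL4P and RN7SL5P the stretches that start from position 70 to 128 occur in 4 or 5 places. In RN7SL3 those before position 119 are unique, and those from 119 to 161 occur in 4 or 5 places.

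The libraries differed in depth and in their number of distinct fragments, which bears on each value below. The counted input reads summed to 3237968 in the control and 1833005 in METTL3-KD, and the peak caller recorded 310 reads per distinct position in the control input against 25.7 in the METTL3-KD input. Reads at the same position can be copies of the same fragment, so the counting intervals may be much narrower than the error of a repeated library. Summed counts were 1.12 times the reads of the peak caller in the control and 1.37 times in METTL3-KD, so a read may have been counted for more than 1 gene or place. METTL3 itself had 0 reads in all 4 input lanes, so the knockdown could not be checked in these counts. The epithelial markers KRT8 and KRT18 had 10850 and 3535 reads in the control and 1167 and 1212 in METTL3-KD, KRT19 had 1 and 201, and EPCAM and CDH1 had 0. The mesenchymal marker VIM had 8978 and 5649 reads. CDH2 and FN1 had 0, and ZEB1 had 0 and 50. COL1A2 had 1804 and 353 reads while COL1A1 and DCN had 0, and the blood markers PTPRC and CD3E and the exocrine markers PRSS1, CPA1 and PTF1A had 0. The part of these differences in the values below was not tested.

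7SL RNA was among the most abundant RNAs in both inputs, and its share of all counted reads was nearly the same. The 5 counted copies held 250346 reads in the control, 7.73% of all counts, and 142892 reads in METTL3-KD, 7.80%. Per lane these were 125635 and 124711 reads in the control and 70759 and 72133 in METTL3-KD. RN7SL2 had the second highest count of all genes in both inputs and RN7SL5P the fourth highest in both. RN7SL4P ranked 6 in the control and 14 in METTL3-KD, and RN7SL3 ranked 8 and 20.

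RN7SL2, the copy with the most reads, counted 59807 and 61274 in the lanes of the control and 26720 and 27355 in those of METTL3-KD. RN7SL5P had 32659 and 29377 reads in the control and 21682 and 22014 in METTL3-KD. RN7SL4P had 19190 and 19246 reads in the control and 17107 and 17208 in METTL3-KD. For these copies both METTL3-KD lanes lay under both control lanes in reads, with the smallest gap for RN7SL4P. RN7SL3, the copy with the most unique stretches among those of full length, had 13978 and 14812 reads in the control and 5229 and 5534 in METTL3-KD. RN7SL674P, a pseudogene that shares few stretches with the others, had 1 and 2 reads in the control and 21 and 22 in METTL3-KD. Among the listed 7SL copies with counts, it alone had more reads in METTL3-KD, and its reads were a small part of the total. Control lane 1 held 49.7% of all control counts. It held 52.6% of the control reads of RN7SL5P (exact 95% binomial interval 52.3 to 53.0%) and 48.6% of those of RN7SL3 (48.0 to 49.1%). For RN7SL2 it held 49.4% (49.11 to 49.68%, against 49.70% of all counts). The lanes of these copies thus differed by more than counting error, though by little for RN7SL2. For RN7SL4P it held 49.9% (49.4 to 50.4%), an interval that includes the share of all counts.

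**Figure D2:**
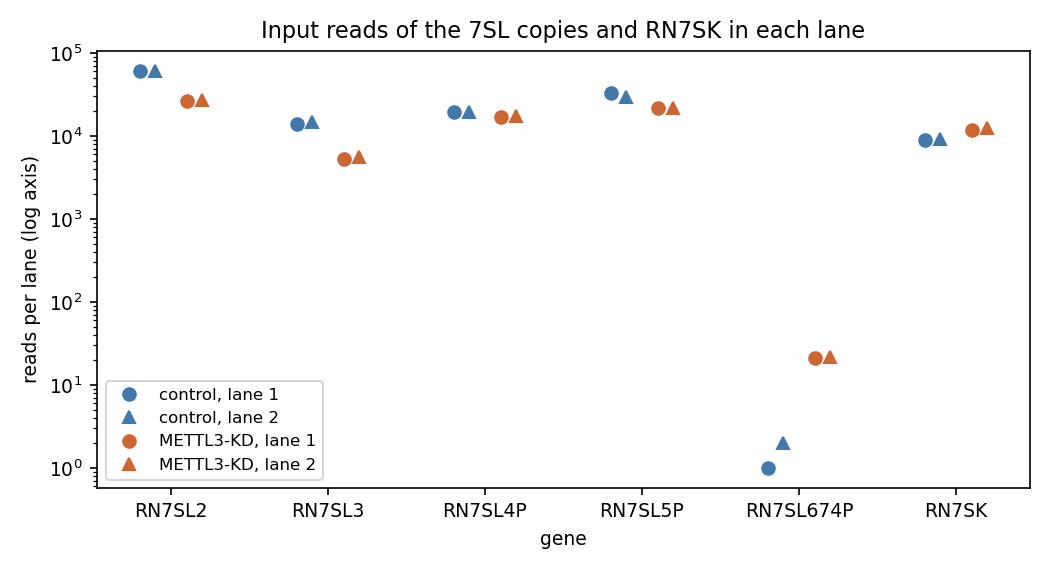
Input reads of each gene in each sequencer lane, on a log axis, with control lanes in blue and METTL3-KD lanes in orange. Lanes of a library nearly coincide, RN7SL2 has the most reads, and RN7SK and RN7SL674P are the genes with more reads in METTL3-KD. RN7SKP36 had 0 reads in every lane and is not drawn.

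The division of 7SL reads among the copies differed between the inputs, and this comparison does not depend on how the libraries are scaled. Without RN7SL1, whose reads are missing from the sum, RN7SL2 took 48.4% of the 7SL reads in the control and 37.8% in METTL3-KD, and RN7SL3 took 11.5% and 7.53%. RN7SL5P took 24.8% and 30.6%, and RN7SL4P took 15.4% and 24.0%. The pseudogenes RN7SL4P and RN7SL5P thus held a larger part of the 7SL reads in METTL3-KD, and RN7SL2 and RN7SL3 a smaller one. The ratio of RN7SL4P to RN7SL2 reads was 0.321 and 0.314 in the control lanes and 0.640 and 0.629 in the METTL3-KD lanes, a 2.0-fold difference between the summed libraries. RN7SL4P to RN7SL3 was 1.34 in the control and 3.19 in METTL3-KD, and RN7SL5P to RN7SL2 was 0.512 and 0.808. RN7SL2 to RN7SL3 differed least, at 4.21 and 5.02. RN7SL2, RN7SL4P and RN7SL5P share many of their 75-nt stretches, and the part of read placement in this division was not tested.

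**Figure D3:**
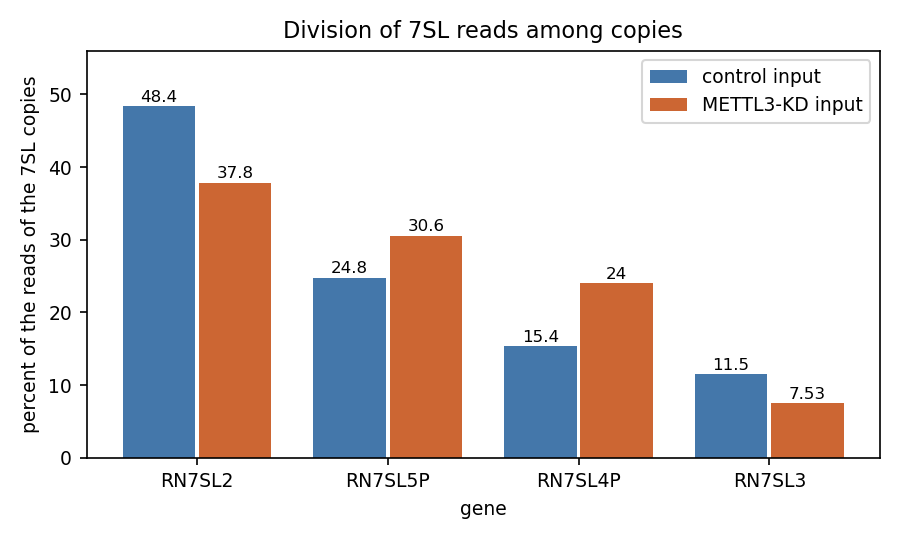
Bars give the percent of all reads of the counted 7SL copies that fell on each copy in the control input (blue) and the METTL3-KD input (orange), 1 library each. RN7SL2 and RN7SL3 take less and RN7SL5P and RN7SL4P more of the 7SL reads in METTL3-KD.

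RN7SK, the functional 7SK gene, was higher in METTL3-KD relative to 7SL. Its lanes held 9038 and 9183 reads in the control and 11828 and 12350 in METTL3-KD, or 0.563% and 1.32% of all counts. The METTL3-KD lanes lay above both control lanes although that library was shallower. The ratio of RN7SK to summed 7SL reads was 0.0719 and 0.0736 in the control lanes and 0.167 and 0.171 in the METTL3-KD lanes, 2.32-fold higher between the summed libraries (log2 difference 1.22). Against RN7SL3 alone the log2 difference was 1.83, and with all annotated copies in both sums it was 1.02. Per nucleotide of gene length, RN7SK had 55.0 reads in the control against 408 for RN7SL2, and 73.0 against 182 in METTL3-KD. RN7SKP36 had 0 reads in every lane. A count of 0 allows up to 3 reads per library.

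The change of a copy between the inputs, in contrast, depended on the scaling. With factors from the trimmed mean of M values (TMM) and a prior count of 2, the log2 ratio of METTL3-KD over control was 1.44 for the summed 7SL copies (counting interval 1.43 to 1.45) and 2.66 for RN7SK (2.63 to 2.68). Single copies had ratios of 1.09 for RN7SL2, 0.83 for RN7SL3, 2.08 for RN7SL4P and 1.74 for RN7SL5P. RN7SL674P had 5.04 (4.45 to 8.42), which rests on 3 control reads. With scaling to total counts the 7SL ratio was 0.012 and that of RN7SK 1.23, and RN7SL2 and RN7SL3 turned to -0.34 and -0.60. Over the 1871 genes with at least 10 reads in both inputs the median log2 ratio was -0.56 with TMM and -1.98 with total counts. The 7SL sum lay above 86.6% of these genes and RN7SK above 95.2%.

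A log2 ratio above 2 with TMM was found for RN7SL4P, RN7SL674P and RN7SK, 3 of the 6 members with at least 10 reads, and no member lay below -2. Among all 9931 genes with at least 10 reads, 79.2% lay above 2 and 7.2% below -2, so the share among the members was no larger than that of the background. Of the genes above 2, 93.9% had 0 control reads, which none of these 3 members had. Among the genes with at least 10 reads in both inputs 8.02% lay above 2.

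The 7SL copies carried the highest m6A peaks of both lists. In the control 7 of the 2298 peaks with a q value under 0.01 had their summit in a listed gene, and in METTL3-KD 6 of 830. Each listed gene had at most 1 peak per list, and RN7SK had none in either list. By pileup, which is the number of distinct fragments at the summit, RN7SL2, RN7SL1, RN7SL3, RN7SL5P and RN7SL4P held the first 5 places in the control. The same copies led the METTL3-KD list, where RN7SL4P tied with a mitochondrial peak at 40. Most other peaks were of another size, since the median pileup was 1 and the median width 100 bp in both lists. Pileups of at least 10 were found at 7 control peaks, 6 of them in a listed copy, and at 18 METTL3-KD peaks, 5 of them in a listed copy.

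RN7SL2 had the highest peak, with a pileup of 96 in the control (chr14:50329358-50329517, 160 bp) and 71 in METTL3-KD (chr14:50329299-50329521, 223 bp). RN7SL1 followed with 89 in the control (chr14:50053345-50053516, 172 bp) and 62 in METTL3-KD (chr14:50053335-50053574, 240 bp). RN7SL3 had 86 (chr14:50320444-50320573, 130 bp) and 59 (chr14:50320397-50320577, 181 bp). The pileup of each of these was lower in METTL3-KD and the peak wider. RN7SL5P had 85 (chr9:9442091-9442218, 128 bp) and 61 (chr9:9442093-9442262, 170 bp). RN7SL4P had 81 (chr3:15780066-15780191, 126 bp) and 40 (chr3:15780062-15780200, 139 bp), the lowest ratio between the lists at 0.494. Over the 5 copies the METTL3-KD pileup was 0.494 to 0.740 times that of the control and the peaks were 13 to 68 bp wider. The METTL3-KD m6A library had 4508 distinct positions against 7920 in the control, and per 1000 of these the pileup ranged between 10.2 and 12.1 in control cells and between 8.87 and 15.7 in METTL3-KD cells, higher in METTL3-KD for all of them but RN7SL4P. At most 1 fragment was kept per position and strand, and the pileup of a 100-bp fragment can therefore not pass 100 on a strand. The control pileups lay near that bound if the reads came from a single strand, so differences among them may be compressed. The bound is the same in both lists, but the numbers of distinct positions differ. Values per 1000 positions were therefore capped lower in the control than in METTL3-KD. Which list was higher per 1000 positions thus says little about m6A.

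The other listed pseudogenes had lower pileups. RN7SL674P had a control peak of pileup 14 (chr2:11724915-11725014, 100 bp), which ranked 7 by pileup in the control list. The fold enrichment of 8.10 was the highest of the control list, but it rested on 1 distinct input fragment at the summit. RN7SL674P had no METTL3-KD peak. Its input read counts went the other way, with 3 reads in the control and 43 in METTL3-KD. RN7SKP36 had a pileup of 1 in both lists (chr4:7113892-7113991 and chr4:7113895-7113994, 100 bp each), a single fragment with a fold enrichment of 2.0 in each. A pileup of 1 was found at 1196 control peaks (52.0%) and 513 METTL3-KD peaks (61.8%), and the RN7SKP36 peaks came with 0 reads in the input counts.

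Peaks of the listed genes were shared between the lists. Of the 7 control peaks 6 overlapped a METTL3-KD peak by at least 1 bp, those of RN7SL1, RN7SL2, RN7SL3, RN7SL4P, RN7SL5P and RN7SKP36, and only that of RN7SL674P did not. Among all peaks 13 were shared, 0.566% of the control peaks and 1.57% of the METTL3-KD peaks, so the listed genes gave 6 of the 13. The overlaps were long for the 7SL copies, 126 to 172 nt, and the control peak lay wholly inside the METTL3-KD peak for 4 of the 5. Summits moved by 5 nt in RN7SL2, 2 nt in RN7SL3, 10 nt in RN7SL4P, 1 nt in RN7SL5P and 35 nt in RN7SL1. The RN7SKP36 summits were 3 nt apart.

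**Figure D4:**
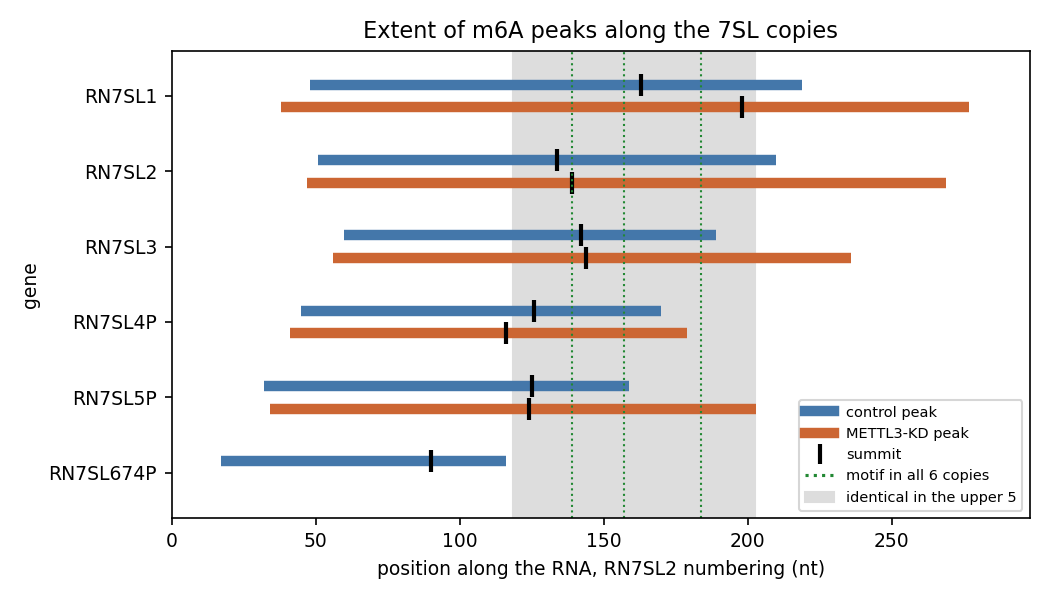
Bars give the extent of the control (blue) and METTL3-KD (orange) m6A peak of each 7SL copy along the RNA, in nt of the RN7SL2 numbering, with the summit as a black tick. Control summits of the upper 5 copies lie from 125 to 163, and the grey stretch from 119 to 202 is identical in those copies. Dotted green lines mark the A of DRACH matches found in all 6 copies.

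Along the RNA the control summits lay at position 134 in RN7SL2, 163 in RN7SL1, 142 in RN7SL3, 126 in RN7SL4P and 125 in RN7SL5P, and at 90 in RN7SL674P. In METTL3-KD they lay at 139, 198, 144, 116 and 124 for the first 5. All but the METTL3-KD summit of RN7SL4P thus fell in the identical stretch of these copies. All 6 copies hold DRACH matches with the A before the C at positions 139, 157 and 184, and 5 of them another at 216. RN7SL2, RN7SL1 and RN7SL3 had 3 matches within 50 nt of the control summit on the RNA strand, RN7SL4P and RN7SL5P had 2, and RN7SL674P had 1. RN7SKP36 had 4. The RN7SL674P match lay 49 nt from the summit and outside the peak, which held 0 matches. The motif is short, and with either strand allowed 97.0% of all control peaks and 98.3% of METTL3-KD peaks had a match within 50 nt of the summit, so a match says little about these copies. RN7SK and RN7SKP36 share matches with that A at 172, 220 and 228 of RN7SK, and RN7SK had no peak.

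Except for RN7SL3, the enrichment of the 7SL copies over input was higher or lower in METTL3-KD according to how the input was scaled. The fold enrichment of the peak caller was 3.33 in the control and 15.3 in METTL3-KD for RN7SL2. For RN7SL1 it was 2.63 and 8.93, and for RN7SL3 4.82 and 32.2. RN7SL4P had 5.29 and 14.6, and RN7SL5P had 4.01 and 16.5. All 5 were higher in METTL3-KD, by 2.75 to 6.68 times. By fold these copies ranked from 16 (RN7SL4P) to 1103 (RN7SL1) in the control list and from 1 (RN7SL3) to 6 (RN7SL1) in the METTL3-KD list. The peak caller had scaled the distinct input fragments to the m6A library, by 0.852 in the control and by 0.0865 in METTL3-KD, where the input held many more distinct positions (52141 against 9291).

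Undoing this scaling gave whole numbers of distinct input fragments at the summits. They were 33 in the control and 43 in METTL3-KD for RN7SL2, 39 and 70 for RN7SL1, and 20 and 10 for RN7SL3. RN7SL4P had 17 and 21, and RN7SL5P had 24 and 32. More input fragments lay at the METTL3-KD summit in 4 of the 5 copies, and fewer in RN7SL3. The ratio of m6A to input fragments without scaling was 2.91 and 1.65 for RN7SL2, 2.28 and 0.886 for RN7SL1, 4.76 and 1.90 for RN7SL4P and 3.54 and 1.91 for RN7SL5P, lower in METTL3-KD. For RN7SL3 it was 4.30 and 5.90, higher in METTL3-KD. Distinct input fragments are bounded at these summits in the same way as the m6A pileup, and the scaled METTL3-KD background could not pass 8.65 per strand, against 85.2 in the control. RN7SL3 was thus higher in METTL3-KD by both measures, on 10 input fragments and with a lower pileup (59 against 86 in the control). The direction of the other copies depended on the scaling. Both measures use the same m6A and input fragments of 1 library per condition. Whether m6A enrichment differed between the conditions was therefore not tested for any copy.

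**Figure D5:**
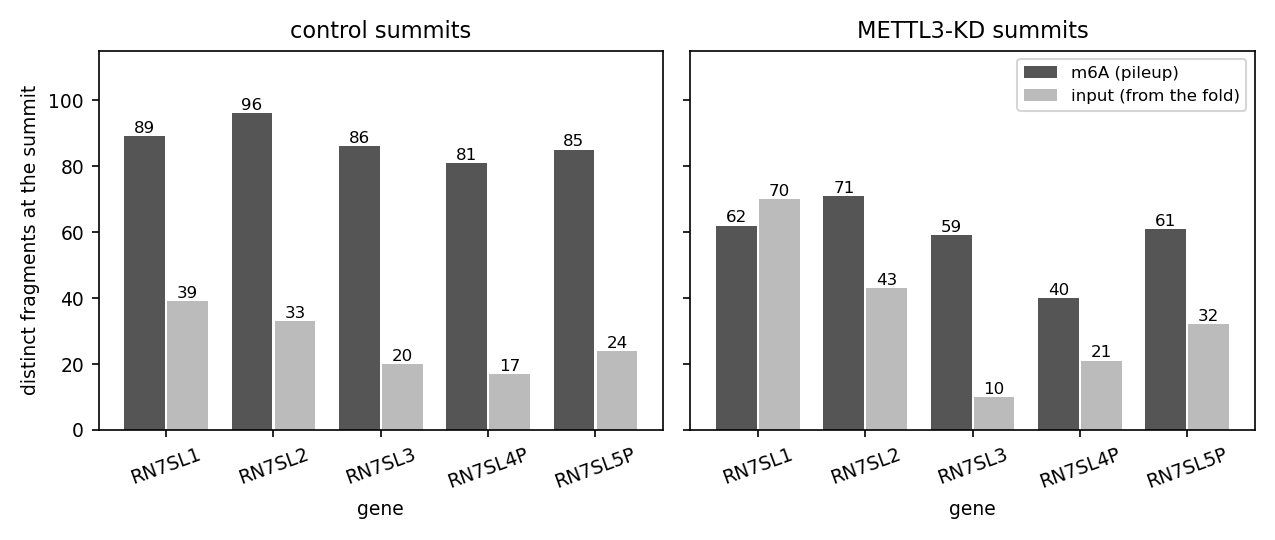
Bars give the distinct m6A fragments (dark) and the distinct input fragments recovered from the fold enrichment (light) at the summit of each 7SL copy, in the control and in METTL3-KD, 1 library each. In the control m6A exceeds input at every copy, and in METTL3-KD the RN7SL1 input bar of 70 exceeds its m6A bar of 62.

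Reads outside the listed genes fell on few of the many other copies. The count table holds 847 annotated 7SL copies, of which 835 had 0 reads in both inputs, and 292 7SK copies, of which 279 had 0. The 7SL copies outside the listed genes added only 55 control and 104 METTL3-KD reads, led by RN7SL752P (16 and 33), RN7SL396P (23 and 25) and RN7SL128P (2 and 44). The 7SK copies outside the listed genes added 19225 and 19116 reads, about as many as RN7SK itself held in the control. RN7SKP203 had 6710 and 7337 reads, RN7SKP71 had 5896 and 5855, RN7SKP80 had 4598 and 3207, and RN7SKP255 had 2009 and 2699. These are the annotated copies with which RN7SK shares most 75-nt stretches, 26.8% with RN7SKP203, 27.6% with RN7SKP71, 21.0% with RN7SKP80 and 11.3% with RN7SKP255. With all annotated copies summed, 7SK made up 1.16% of counts in the control and 2.36% in METTL3-KD, at a log2 ratio of 2.46 with TMM. RN7SL767P had 11 and 1 reads, RN7SKP274 had 5 and 5, and RN7SKP9 had 4 and 3.

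Peaks in other copies were small and none was shared. In the control RN7SL128P had a pileup of 9 with a fold enrichment of 5.40, and RN7SL737P, RN7SL597P, RN7SL507P and RN7SKP230 had a pileup of 1. In METTL3-KD RN7SL664P had a pileup of 2, and RN7SL359P and RN7SL767P had 1. An identifier without a symbol in the reference tables, ENSG00000258486.2, held 56360 and 53379 reads in the lanes of the control and 25239 and 25581 in those of METTL3-KD, close to RN7SL2 in level and with a log2 ratio of 1.14. It was the largest of the 7903 identifiers without a symbol, and its gene was not identified here. Whether it holds the reads of RN7SL1, the listed copy without an identifier, could not be settled from these files. With its reads added, the 7SL sum would be 11.1% of counts in the control and 10.6% in METTL3-KD, of which RN7SL2 would take 33.6% and 27.9%.

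Most genes with reads in METTL3-KD had none in the control input, since 74.3% of the 9931 genes tested lay above a log2 ratio of 2 with 0 control reads, and 2528 to 2529 genes had reads in a control lane against 10236 to 10283 in a METTL3-KD lane. The protein partners of 7SL RNA were of this kind. All 8 genes of the signal recognition particle and its receptor had 0 control reads, and between 33 and 180 reads in METTL3-KD. SRP54, the subunit that binds signal peptides, had 180 reads, SRP9, which binds the Alu domain of 7SL, had 159, SRP68, which binds the S domain, had 150, and SRPRB, the membrane anchor of the receptor, had 133. All 8 were thus above a log2 ratio of 2, where 79.2% of all genes lay. Of the 9 translocation genes with at least 10 reads 8 were above 2, of which 7 had 0 control reads. SEC61A1, the pore subunit of the translocon, was the exception, with 1952 control and 696 METTL3-KD reads and a log2 ratio of 0.76. TRAM1, a membrane protein beside the translocon, had 0 and 217 reads, and the translocon-associated subunits SSR3 and SSR2 had 0 and 204 and 0 and 201. The remaining gene of this list, SEC61B, had 0 reads in both inputs.

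Of 11 genes of the 7SK particle and P-TEFb 8 were above a log2 ratio of 2, near the background of 79.2%, and 3 lay between -2 and 2. HEXIM1, LARP7 and MEPCE, the proteins that bind 7SK and hold or cap it, were at 0 in the control and had 37, 12 and 39 reads in METTL3-KD, and CDK9 had 0 and 49. These 4 were named for their role after their values were seen, and the next 3 have the most reads of the list. AFF4, the scaffold of the super elongation complex, had 1114 and 309 reads (log2 ratio 0.40). DDX21, a helicase, had 871 and 420 (1.19), and SRSF2, a splicing factor, had 532 and 173 (0.62). As shares of all counts, SEC61A1, AFF4, DDX21 and SRSF2 were lower in METTL3-KD (log2 ratios -0.67, -1.03, -0.23 and -0.80).

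Of 15 genes of RNA polymerase III and La with at least 10 reads 10 were above 2, 3 were below -2 and 2 lay between. Among all genes 79.2% lay above and 7.2% below. Of the 10 above 2, 9 had 0 control reads, and 8 more genes of the list had 0 reads in both inputs. BRF2 and SNAPC4, which act at promoters of the 7SK type, had 1024 and 501 control reads and 0 in METTL3-KD, and POLR3G, a polymerase subunit, had 1058 and 40 (log2 ratio -2.46). GTF3C1, a subunit of the factor that reads internal promoters, had 1094 and 283 (0.30), and SSB, the La protein that binds the ends of new polymerase III transcripts, had 3 and 234 (7.47, interval 6.97 to 10.82) and was named for its role after its values were seen. As a share of all counts GTF3C1 had a log2 ratio of -1.13.

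Other small structured RNAs gave a yardstick of the same kind of molecule. Of 11 with at least 10 reads 7 were above a log2 ratio of 2 (79.2% among all genes) and 4 lay between -2 and 2. Of the 7, 3 had 0 control reads. The median of the 11, which includes these 3, was 2.21 and lies between the 7SL sum and RN7SK. RNU1-1, of the U1 spliceosomal RNA, had 11049 and 35964 reads (3.95) and may share reads with its other copies. RNU4-2, of the U4 spliceosomal RNA, had 2022 and 2989 (2.81). The other U4 gene of the list, RNU4-1, named after its values were seen, went the other way in reads, with 1083 and 350 (0.62). SNORD3A, the U3 RNA of ribosome assembly, had 4271 and 2361 (1.39). The Y RNA RNY3 had 2713 and 385 (-0.57). RN7SK was thus below RNU1-1 and RNU4-2 in log2 ratio and above RNU4-1, SNORD3A and RNY3, and the 7SL sum was close to SNORD3A. As shares of all counts the log2 ratios were 2.52 for RNU1-1, 1.38 for RNU4-2, -0.81 for RNU4-1, -0.034 for SNORD3A and -2.0 for RNY3. Those of RN7SK and the 7SL sum were 1.23 and 0.012.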

How the data were processed

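MeRIP-seq was performed by the authors with total RNA fragmented to about 100 nt and a stranded kit. Ribosomal reads were removed with Bowtie2, the rest was aligned with HISAT2 to hg19, and genes were counted with featureCounts. The deposited table holds raw whole-number counts of input reads per gene and lane. Peaks were called by the authors with MACS2 2.1.1.20160309 (per the file headers), lanes pooled, each m6A library against its input. The deposited pileup is a signal of distinct fragments of 100 bp, the fold is the authors' ratio of pileup plus 1 to scaled local background plus 1, and the deposited −log10 column gives q. Peaks with q under 0.01, the limit of the methods, were used here, although the headers record 0.05. Versions of the other tools, the annotation, the use of strand and the treatment of multiple alignments are not given in the sources used here.

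Lanes were summed. Log2 ratios were computed with edgeR 4.0.16 in R 4.3.3 (TMM, prior count 2, at least 10 reads over both inputs) and checked on simulated counts. DESeq2 1.42.0 served as an alternative. With 1 library per condition there is no test. Intervals are exact Clopper-Pearson intervals (95%) of the read split. Input fragments at a summit were recovered by solving the fold for the background and dividing by the scale of the headers, a step chosen after seeing the data. Of peaks with at least 0.5 fragments, 7 of 8 in the control and 23 of 26 in METTL3-KD came out whole within 0.05. Sequences came from GRCh37 with GENCODE 44 positions, and symbols from reference tables (55665 of 63568 identifiers matched). RN7SL1 was paired with no identifier, so the 7SL sum holds 5 of the 6 listed copies. RMRP, RPPH1, RNU11, RNU12, RNU2-1 and PECAM1 were not paired either. The members, gene lists and named genes were chosen with earlier results of these data known. All listed members, the other copies with a peak, the 10 others with the most reads, and up to 4 genes with the most reads in each list were named. Some items are not reported here.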

Additional observations from a re-analysis of the deposited data

How the results depend on the processing

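The 7SL ratio of 1.44 moved to 1.68 with DESeq2 size factors and 0.012 with total count scaling. It was 1.38 with a minimum of 1 read and 1.59 with a minimum of 50 reads. It ranged from 1.59 to 1.65 without a lane. The 7SK ratio of 2.66 moved to 2.90, 1.23, 2.60 and 2.81 under the same settings in that order, ranged from 2.80 to 2.86 without a lane, and was 2.46 with all annotated copies. The 7SL ratio stayed above 0 in every setting, but with total counts by 0.012 only. None of these settings added ENSG00000258486.2 to the 7SL sum. With its reads added, the 7SL share of all counts was lower in METTL3-KD (10.6%) than in the control (11.1%). With lanes entered as replicates in edgeR, 7SL had 1.6 without the replicate block and 1.6 with it, and 7SK had 2.81 and 2.81; in DESeq2 on lanes they had 1.95 and 3.16. The lane numbers did not pair the inputs (correlation of lane deviations -0.0117 over 1871 genes). Total count scaling reversed RN7SL2 to -0.34 and RN7SL3 to -0.60, and left 1 member above a log2 ratio of 2 in place of 3. A limit of 1 gave 5 members. The count ranged from 3 to 4 without a lane. A fold enrichment of at least 4 left 4 control peaks in members and 3 shared. Of the 5 shared 7SL copies, the number higher in METTL3-KD was 5 by fold, 1 by m6A over unscaled input fragments, 4 per 1000 positions and 0 by the pileup as listed, measures that were added after seeing the data. So were those of the RN7SK to 7SL ratio, whose log2 difference of 1.22 was 1.02 with all annotated copies, 0.95 without RN7SL2, 1.83 against RN7SL3 alone and 1.30 with ENSG00000258486.2 in the 7SL sum, with 1.22 in each lane. Scaling settings move all genes alike by construction, and other causes were not tested. The ratio of RN7SL674P rests on 3 control reads, and RN7SKP36 had 0 reads in both inputs.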
